A study of Homo sapiens with 9 samples.

Results

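The genes of the mitochondrial respiratory chain and ATP synthase were followed in H1, an established line of human embryonic stem cells. Gene symbols were matched by their name stems (NDUFA, NDUFB, NDUFC, NDUFS and NDUFV, the SDH genes, UQCR and CYC1, the nuclear COX subunits, the ATP5 genes and the MT-ND, MT-CO, MT-ATP and MT-CYB genes), without pseudogenes. This gave 106 of the 40332 symbols in the deposited table. Of these, 86 are nuclear protein-coding genes, 13 are encoded in the mitochondrial genome, 6 are antisense or divergent RNAs with a matching name (NDUFA6-DT, NDUFB2-AS1, NDUFV1-DT, NDUFV2-AS1, UQCRB-AS1 and UQCRFS1-DT) and 1 is a readthrough locus, NDUFC2-KCTD14. RNA was sequenced from 3 groups of 3 libraries, all wild-type H1. The first group was kept in N2B27, a basal medium, with 5 µM EPZ-6438 for 3 days; EPZ-6438 inhibits EZH2, the histone methyltransferase of Polycomb repressive complex 2. The second group was in N2B27 without the inhibitor, for a time that no label states, so the inhibitor and the time out of PXGL cannot be told apart. The third was in PXGL, a naive-state medium whose name stands in the titles of all groups. It adds LIF, a cytokine, and blocks MEK, protein kinase C and tankyrase with small molecules. All groups come from 1 cell line, and the labels do not say whether replicates were separate cultures, and the p-values below therefore speak only of library-to-library spread, possibly technical.

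The respiratory chain passes electrons from NADH (through complex I) and succinate (through complex II) by way of ubiquinone to complex III, cytochrome c and complex IV, where oxygen is reduced. Complexes I, III and IV pump protons across the inner membrane, and complex V, the ATP synthase, uses the gradient to make ATP. Complex II is built from nuclear genes alone, while the others combine nuclear subunits with core membrane subunits made inside the mitochondrion from polycistronic transcripts of its own genome. Naive and primed human pluripotent cells are known to differ in how far they rely on oxidative phosphorylation.

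Promoters are shown for 3 genes that were lower with EPZ-6438 than without it, 1 each from complexes II, III and I, and for the complex IV isoform gene COX6B2, which was lower outside PXGL. The 3 are those with the smallest adjusted p among members that have a single window. Each window runs from 250 bases before to 30 bases after a RefSeq transcription start on GRCh38.p14. Capitals mark the letters GCGCA, then any base, then GCGC, searched on both strands, which is the core of the binding motif of nuclear respiratory factor 1 (NRF1), a transcription factor known to act on many respiratory chain promoters. The windows lie at chr5:218070-218349 (plus strand) for SDHA, chr16:21953111-21953390 (plus strand) for UQCRC2, chr9:122159750-122160029 (minus strand) for NDUFA8 and chr19:55354690-55354969 (minus strand) for COX6B2.
SDHA: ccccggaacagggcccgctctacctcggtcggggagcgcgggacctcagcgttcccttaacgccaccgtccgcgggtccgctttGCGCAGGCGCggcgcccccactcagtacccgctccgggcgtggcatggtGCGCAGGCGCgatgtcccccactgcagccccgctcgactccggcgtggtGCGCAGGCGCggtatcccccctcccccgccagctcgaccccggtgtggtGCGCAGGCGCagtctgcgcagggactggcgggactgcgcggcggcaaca
UQCRC2: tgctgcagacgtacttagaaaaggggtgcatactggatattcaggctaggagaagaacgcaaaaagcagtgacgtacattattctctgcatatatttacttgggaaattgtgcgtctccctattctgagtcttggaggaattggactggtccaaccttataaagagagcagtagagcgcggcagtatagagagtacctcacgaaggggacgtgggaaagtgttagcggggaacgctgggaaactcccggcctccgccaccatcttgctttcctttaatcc
NDUFA8: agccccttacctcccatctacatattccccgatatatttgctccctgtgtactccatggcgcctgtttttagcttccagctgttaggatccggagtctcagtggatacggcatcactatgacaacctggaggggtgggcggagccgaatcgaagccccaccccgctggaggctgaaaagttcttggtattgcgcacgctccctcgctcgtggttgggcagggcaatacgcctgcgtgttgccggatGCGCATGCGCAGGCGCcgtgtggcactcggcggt
COX6B2: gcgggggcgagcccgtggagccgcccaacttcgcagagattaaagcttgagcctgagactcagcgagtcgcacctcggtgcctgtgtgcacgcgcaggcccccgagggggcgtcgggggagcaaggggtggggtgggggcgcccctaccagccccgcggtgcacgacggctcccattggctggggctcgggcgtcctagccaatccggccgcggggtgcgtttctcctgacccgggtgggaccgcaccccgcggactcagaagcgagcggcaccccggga
The SDHA window held 4 separate matches and the NDUFA8 window 2 that overlap, while those of UQCRC2 and COX6B2 held none. RefSeq windows matched 68 of the member genes, with 81 windows in all. The NRF1 letters stood in 21% of the members' windows, against 5.69% of all 35116 windows. The ETS letters CCGGAAG stood in 25.9% of the members' windows and in 9.94% of all windows. The YY1 letters AAGATGGCG stood in 9.88% of the members' windows and in 1.42% of all windows. Among the 11 member genes with a window that were lower with EPZ-6438, 3 held the NRF1 letters, 3 the ETS letters and 1 the YY1 letters. A match is a description of the sequence and not a measured binding site.

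Total counts were 14719595 to 16479593 per library with EPZ-6438, 14482124 to 15295189 in N2B27 and 17499691 to 18358519 in PXGL. All 7 embryonic stem cell markers listed were detected, with summed levels of 5117 to 5148 CPM (counts scaled to a common library size after TMM) with EPZ-6438, 6325 to 6358 CPM in N2B27 and 3959.8 to 4362.5 CPM in PXGL. The 7 primed-state markers summed to 246 to 254 CPM with EPZ-6438, 561 to 575 CPM in N2B27 and 27.3 to 28.1 CPM in PXGL. The 7 naive markers summed to 3167 to 3273 CPM with EPZ-6438, 2568 to 2589.5 CPM in N2B27 and 4529 to 5219 CPM in PXGL. Hypoblast markers summed to 56.2 to 61.7 CPM with EPZ-6438, 28.8 to 29.2 CPM in N2B27 and 38.7 to 47.5 CPM in PXGL. Fibroblast markers summed to 43 to 45.5 CPM, 54.1 to 56.3 CPM and 14 to 19.4 CPM in these groups. Trophectoderm markers, at 87 to 98.6 CPM in any library, overlapped between groups. Only 4 of the 7 hypoblast, 3 of the 6 fibroblast and 5 of the 7 trophectoderm markers passed the filter on low counts. No count was found for 1 hypoblast and 2 trophectoderm markers, so these sums rest on a part of each list. All these summed levels but that of the trophectoderm markers differed in every comparison here. The part of the markers in the results was not tested. In bulk RNA, fewer cells of a type and less RNA per cell cannot be told apart. PXGL replicate 1 stood apart from PXGL replicates 2 and 3 (chi-square per degree of freedom 19.6 and 26.3, against at most 3.66 for any other replicate pair). In that library 76 of the 82 tested nuclear members were the highest of the 3 PXGL libraries, with a median ratio of 1.27 to the mean of PXGL replicates 2 and 3. All tested genes had a median ratio of 0.999 and those with a transcript of up to 1000 bases 1.21. The counts and medians of each comparison with PXGL are therefore also given without it.

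Per transcript length, 9 of the 13 mitochondrial genes stood above the highest nuclear member, and MT-ND6, MT-ND3, MT-ND4L and MT-ATP8 stood below it, with MT-ATP8 lowest at 101 TPM over all 9 libraries. In TPM (counts per base of the annotated principal transcript, scaled to a common total), MT-CO3, a core subunit of complex IV, was highest, at 22568.5 ± 702.8 TPM with EPZ-6438, 24780.5 ± 412 TPM in N2B27 and 21654 ± 1308 TPM in PXGL (SD, n = 3 each). The highest nuclear member was ATP5F1B, the catalytic beta subunit of ATP synthase, with 1392 ± 22.4 TPM with EPZ-6438, 1663 ± 51.4 TPM in N2B27 and 1939.8 ± 77.9 TPM in PXGL. Within complex III UQCRH, the hinge protein beside cytochrome c1, led with 993 ± 11.7 TPM with EPZ-6438, 937 ± 27 TPM in N2B27 and 1165 ± 96.7 TPM in PXGL. COX6A1 led the nuclear subunits of complex IV, NDUFS5 those of complex I and SDHD those of complex II, at 745, 605 and 267 TPM over all 9 libraries. The lowest nuclear complex I member was NDUFA3, at 12.2 TPM. SDHC came out lowest in complex II at 21.7 TPM, a value that rests on an annotated principal transcript of 13566 bases.

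Not all members could be tested. Of the 86 nuclear protein-coding members 82 passed the filter on low counts, as did all 13 mitochondrial ones, NDUFA6-DT and NDUFC2-KCTD14. The heart and muscle isoform COX6A2 and ATP5MGL, a copy of the ATP synthase gene ATP5MG, had no count in any library. Their floor of 3 counts corresponds to 0.163 to 0.207 CPM and covers counting error only. The muscle isoform COX7A1 reached at most 0.134 CPM with EPZ-6438 and 0.141 CPM in N2B27 and had no count in PXGL, and COX8C reached at most 0.111 CPM in any library. The 6 muscle markers listed summed to at most 6.36 CPM in any library. The 5 antisense and divergent RNAs that were not tested stayed at or under 0.6 CPM. NDUFA6-DT, with at most 2.5 CPM, and NDUFC2-KCTD14, with at most 1.39 CPM, were called in no comparison with all libraries. Without PXGL replicate 1, NDUFA6-DT was called lower in N2B27 than in PXGL (log2 change -1.21, edgeR adjusted p = 0.036), from few counts.

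N2B27 with EPZ-6438 was compared with N2B27 alone, a contrast that holds the inhibitor together with any difference in time out of PXGL. The nuclear members were slightly lower with the inhibitor. Of 82 tested, 14 were called lower (edgeR quasi-likelihood test, Benjamini-Hochberg adjusted p under 0.05 over all 15179 tested genes), 0 higher, and 68 were not called. At an unadjusted p under 0.05 there were 25 lower and 1 higher, and by DESeq2 17 lower and 0 higher. The median log2 fold change was -0.11, against 0.0073 over all tested genes, and 67 of 82 were negative. Among all tested genes 10.6% were called lower, 14.2% higher and 24.7% either way, and among genes with a mean of at least 30 CPM 15.7% were called lower, at a median of -0.043. With all libraries, the members' share called lower is thus close to that of well-expressed genes at large.

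In complex I, 6 of 36 nuclear subunits fell. NDUFS1, the largest core subunit, which carries iron-sulfur clusters (chromosome 2, 206114817 to 206159603), had 139, 137 and 141 CPM with EPZ-6438, against 193, 190.3 and 191 CPM in N2B27. All 3 inhibitor libraries lay below all N2B27 libraries and the spread within each group was small. Its log2 fold change was -0.46 ± 0.06 (SE; edgeR adjusted p = 2.7e-05). NDUFA8, an accessory subunit on the intermembrane side (chromosome 9, 122144058 to 122159819), had 47, 54.2 and 47.4 CPM with EPZ-6438, against 69.1, 72.2 and 70.6 CPM in N2B27, again without overlap, a log2 change of -0.51 ± 0.11 (edgeR adjusted p = 0.0033). NDUFS5, another accessory subunit, fell by 0.36 on the log2 scale, as did NDUFA5 by 0.28. NDUFV1, which binds NADH and the flavin, fell by 0.27 and its partner NDUFV2 by 0.34. In a split of complex I made after the values were seen, 3 of the 7 nuclear core subunits and 3 of the 29 accessory subunits fell.

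In complex II, which also serves the citric acid cycle, both catalytic subunits fell. SDHA, the flavoprotein that oxidises succinate (chromosome 5, 218241 to 256700), had 96.7, 97.5 and 101 CPM with EPZ-6438, against 136, 133 and 133 CPM in N2B27. The groups did not overlap, and the log2 fold change was -0.45 ± 0.06 (edgeR adjusted p = 5.4e-05). SDHB, the iron-sulfur subunit, had 49.9, 48.2 and 47.9 CPM with EPZ-6438, against 61.8, 59 and 62.6 CPM in N2B27, a log2 change of -0.33 ± 0.09 (edgeR adjusted p = 0.01). The membrane anchors SDHC and SDHD had log2 changes of -0.16 and -0.20 and were not called (edgeR adjusted p = 0.09 and 0.093), which does not show that they differ from SDHA and SDHB; without PXGL replicate 1 both were called lower.

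In complex III both large core proteins on the matrix side fell, UQCRC2 and UQCRC1, and the other 8 members were not called. UQCRC2 (chromosome 16, 21952660 to 21983660) had 233, 229 and 228 CPM with EPZ-6438, against 282, 288 and 284 CPM in N2B27. The inhibitor libraries all lay below, with a log2 fold change of -0.31 ± 0.06 (edgeR adjusted p = 0.0013). UQCRC1 changed by -0.26 ± 0.08 (edgeR adjusted p = 0.029). In complex IV 1 of 14 tested nuclear subunits fell, COX5A, which had 113, 108 and 107 CPM with EPZ-6438, against 133, 129 and 129 CPM in N2B27 (log2 change -0.26 ± 0.08, edgeR adjusted p = 0.026). Complex V had 3 called of 18 tested, the alpha subunit ATP5F1A, the beta subunit ATP5F1B and the delta subunit ATP5F1D. In a split made after the values were seen, these were 3 of the 5 subunits of the catalytic F1 head. Its epsilon subunit ATP5F1E changed by 0.40 ± 0.18 and was not called (edgeR adjusted p = 0.12). ATP5F1B (chromosome 12, 56638175 to 56646068) had 1127, 1151 and 1157 CPM with EPZ-6438, against 1453, 1379 and 1359.96 CPM in N2B27. Every inhibitor library lay below every N2B27 library (log2 change -0.29 ± 0.07, edgeR adjusted p = 0.0076). The other 15 tested members of complex V were not called, among them the inhibitor protein ATP5IF1 at -0.26 ± 0.09 (edgeR adjusted p = 0.051). The median of the 13 tested members outside F1 was -0.16, against -0.23 for the 5 F1 subunits. Of these 13, ATP5MK (-0.28) and ATP5MF (-0.27) had larger changes than ATP5F1A (-0.23). Without PXGL replicate 1, 6 of the 13 and 4 F1 subunits were called lower, and ATP5F1E was called higher.

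**Figure D1:**
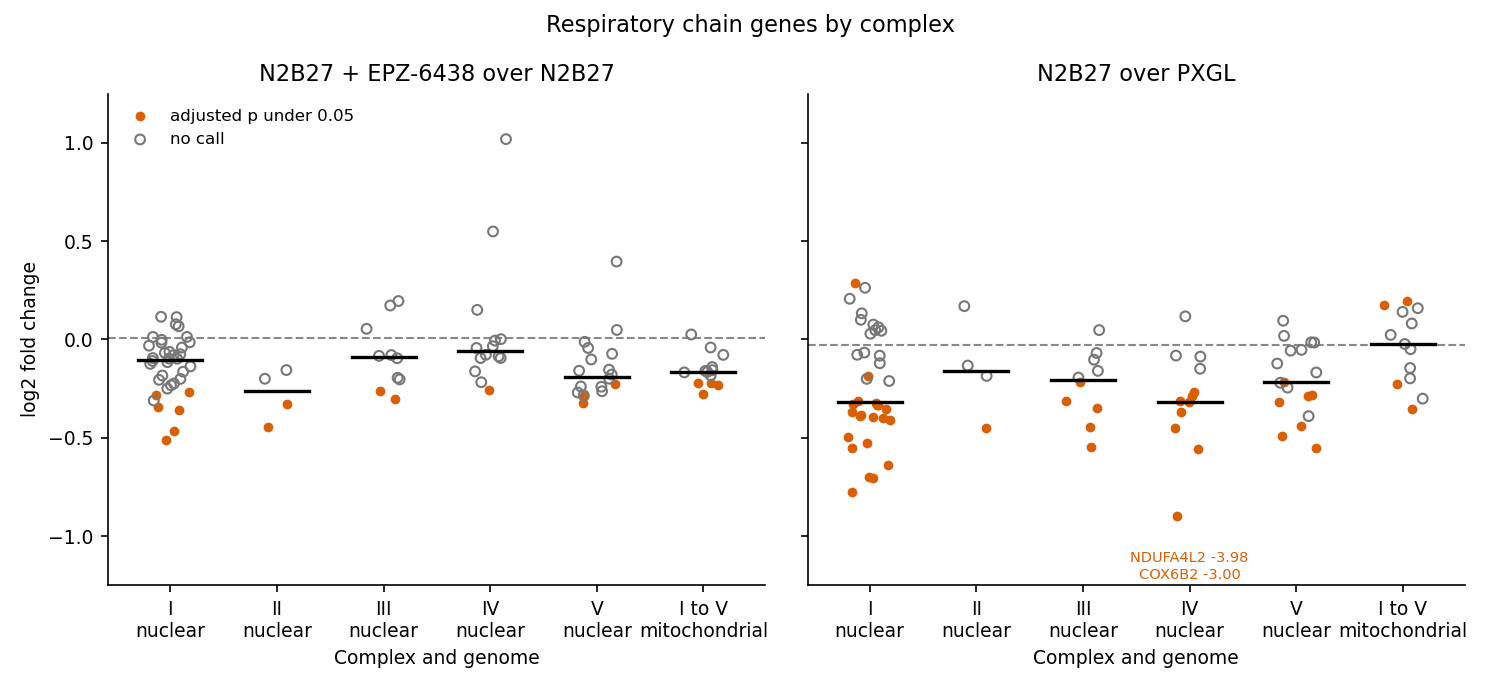
Log2 fold change of each tested member (points) by complex and genome, for N2B27 with EPZ-6438 over N2B27 and for N2B27 over PXGL; filled points were called at adjusted p under 0.05, black bars are medians, the dashed line is the median of all tested genes, and NDUFA4L2 (-3.98) and COX6B2 (-3.00) lie below the axis. Nuclear called members lie below 0 in both panels except NDUFA5 in N2B27 over PXGL, and the mitochondrial median is -0.17 with the inhibitor and -0.023 in N2B27 over PXGL.

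Leaving out 1 library at a time, NDUFS1, NDUFA8, SDHA, SDHB and UQCRC2 stayed called in each of the 9 fits, as they did in the 9 other settings. The other 9 nuclear calls were lost in at least 1 of the leave-one-out fits. ATP5F1A, COX5A and UQCRC1 were lost without any 1 of the 6 libraries compared, and NDUFV1 without any 1 of these but N2B27 replicate 3. NDUFA5 was lost without EPZ-6438 replicate 2 or 3 or any 1 N2B27 library, ATP5F1D without EPZ-6438 replicate 2 or 3 or N2B27 replicate 1 or 3, NDUFV2 without EPZ-6438 replicate 1 or 3 or N2B27 replicate 1, NDUFS5 without EPZ-6438 replicate 2 and ATP5F1B without N2B27 replicate 1. The spread is shared by all 9 libraries in the fit, so PXGL replicate 1 also bears on this comparison. Without it 33 nuclear members were lower and 1 higher, with all 14 of the first set among the 33. Of all tested genes 17.9% were then called lower and 19.2% higher. Of genes with a mean of at least 30 CPM, 30.2% were then called lower, a share that the 33 of 82 members exceeded.

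N2B27 against PXGL compares the basal medium with the naive one. Here the nuclear members differed more widely: 43 of 82 were lower in N2B27, 1 was higher (NDUFA5) and 38 were not called. Among all tested genes 28.7% were called lower, 27.3% higher and 56% either way. Among genes with a mean of at least 30 CPM 27% were called lower, at a median of 0.055. The members' median log2 fold change was -0.26, against -0.028 over all tested genes. Without PXGL replicate 1, 34 of the same 43 stayed lower, 14 were higher and the median was -0.14. Of all tested genes 30.8% were then called lower and 30.4% higher. Of genes with a mean of at least 30 CPM, 31.6% were then called lower and 42.5% higher. Beside this stand the transcript lengths: among members with a transcript of up to 1000 bases the median was -0.32, against -0.12 over all 1162 tested genes of that length, and among longer ones it was -0.12, against -0.019. With a transcript length trend removed from each library, 37 of the 43 stayed lower, 8 members were higher and the median was -0.15, while 28.2% of all tested genes were called lower and 31.7% higher, at a median of 0.016.

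By complex, 20 of 36 nuclear subunits of complex I were lower in N2B27, 1 of 4 of complex II, 5 of 10 of complex III, 10 of 14 of complex IV and 7 of 18 of complex V. Without PXGL replicate 1 these counts were 15, 1, 4, 8 and 6, while 8, 1, 1, 1 and 3 members of complexes I to V were higher. NDUFS7, the core subunit that carries the last iron-sulfur cluster before ubiquinone (chromosome 19, 1383527 to 1395589), had 63, 58.1 and 59 CPM with EPZ-6438, 64.1, 57.2 and 70.9 CPM in N2B27 and 129, 99.6 and 101 CPM in PXGL. The PXGL libraries lay above all others, also with replicate 1 set aside. Its log2 fold change in N2B27 over PXGL was -0.78 ± 0.10 (edgeR adjusted p = 5.1e-06), and -0.64 without PXGL replicate 1. NDUFV1 (chromosome 11, 67605653 to 67612554) had 151, 154 and 153 CPM with EPZ-6438, 188, 186 and 178 CPM in N2B27 and 333, 266 and 259 CPM in PXGL. The 3 groups did not overlap. The log2 change in N2B27 over PXGL was -0.64 ± 0.08 (edgeR adjusted p = 4.5e-06), and -0.51 without PXGL replicate 1. NDUFA5, in contrast, had 86.4, 79.5 and 78.7 CPM with EPZ-6438, 101, 102 and 94.8 CPM in N2B27 and 94.4, 78.9 and 70.5 CPM in PXGL. N2B27 was thus the highest of the 3 groups, with a log2 change of 0.29 ± 0.09 over PXGL (edgeR adjusted p = 0.012), a call lost without PXGL replicate 3.

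In complex II only the anchor SDHC was called: it had 123, 126 and 119 CPM in N2B27, against 174, 171 and 159 CPM in PXGL, a log2 change of -0.45 ± 0.06 (edgeR adjusted p = 1.4e-05). Its change without PXGL replicate 1 was -0.43. SDHA changed by -0.13, SDHB by -0.19 and SDHD by 0.17 on the log2 scale, with edgeR adjusted p of 0.077, 0.073 and 0.094; without PXGL replicate 1 SDHD was called higher, at 0.27. In complex III the small subunit UQCR11 had 38.4, 38.7 and 40.2 CPM in N2B27, against 66.4, 58.8 and 46.3 CPM in PXGL (-0.55 ± 0.11, edgeR adjusted p = 0.00043). Its change without PXGL replicate 1 was -0.43. UQCRH had 252, 265 and 258 CPM in N2B27, against 372, 314 and 277 CPM in PXGL (-0.31 ± 0.08, edgeR adjusted p = 0.004), a change of -0.19 without PXGL replicate 1. Its copy UQCRHL had 9.54 to 10.1 CPM in N2B27, against 9.27 to 13.7 CPM in PXGL, and was not called; it shares 7.65% of its 50-base windows with UQCRH, so part of its reads may belong to either. In complex V ATP5F1D had 73.7, 69 and 80.2 CPM in N2B27, against 120.2, 93.8 and 99.5 CPM in PXGL (-0.49 ± 0.10, edgeR adjusted p = 0.00059). Its change without PXGL replicate 1 was -0.38. The F1 alpha and gamma subunits ATP5F1A and ATP5F1C had log2 changes of -0.016 and -0.015 and were not called.

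EPZ-6438 in N2B27 against PXGL shares its libraries with both comparisons above, and is given for its own values. Of the 82 nuclear members 55 were lower, 0 higher (also 0 at an unadjusted p under 0.05 and by DESeq2) and 27 not called, with a median log2 fold change of -0.37, against -0.0015 over all tested genes. Among all tested genes 28% were called lower, 28.1% higher and 56.1% either way, and among those with a mean of at least 30 CPM 29.4% were called lower, at a median of 0.018. Without PXGL replicate 1 there were 51 lower and 4 higher, at a median of -0.25, against 29.7% and 31.2% of all tested genes. Of genes with a mean of at least 30 CPM, 33.7% were then called lower and 38.9% higher. NDUFV1 changed by -0.91 ± 0.08 (edgeR adjusted p = 8.1e-08), NDUFS7 by -0.87 ± 0.10 (1.4e-06), SDHC by -0.61 ± 0.06 (5e-07) and SDHA by -0.58 ± 0.06 (6.8e-07). COX5A changed by -0.58 ± 0.08 (edgeR adjusted p = 1e-05) and ATP5F1D by -0.81 ± 0.10 (4.5e-06). Without PXGL replicate 1 these changes were smaller: NDUFV1 -0.78, NDUFS7 -0.74, SDHC -0.58, SDHA -0.54, COX5A -0.47 and ATP5F1D -0.70. Per complex, 25 of 36, 3 of 4, 6 of 10, 10 of 14 and 11 of 18 tested members of complexes I to V were lower, or 24, 3, 5, 8 and 11 without PXGL replicate 1.

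Summed over all nuclear members, the level was 8510.5, 8319 and 8377 CPM with EPZ-6438, 9583, 9508 and 9338 CPM in N2B27 and 12616, 10384 and 9689 CPM in PXGL. The 3 groups did not overlap, and PXGL replicate 3 lay just above the highest N2B27 library. The sum with EPZ-6438 was 0.887 times that in N2B27, and by complex 0.892 (I), 0.832 (II), 0.904 (III), 0.937 (IV) and 0.87 (V) times. N2B27 stood at 0.87 times PXGL, or 0.944 times without PXGL replicate 1. The 13 mitochondrial genes summed to 40804, 45297 and 41669 CPM with EPZ-6438, 49038, 48668 and 48542 CPM in N2B27 and 49602, 47570 and 46888 CPM in PXGL. Here the inhibitor libraries lay below all others, while N2B27 and PXGL overlapped. Sums are led by their most abundant members and carry no test.

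**Figure D2:**
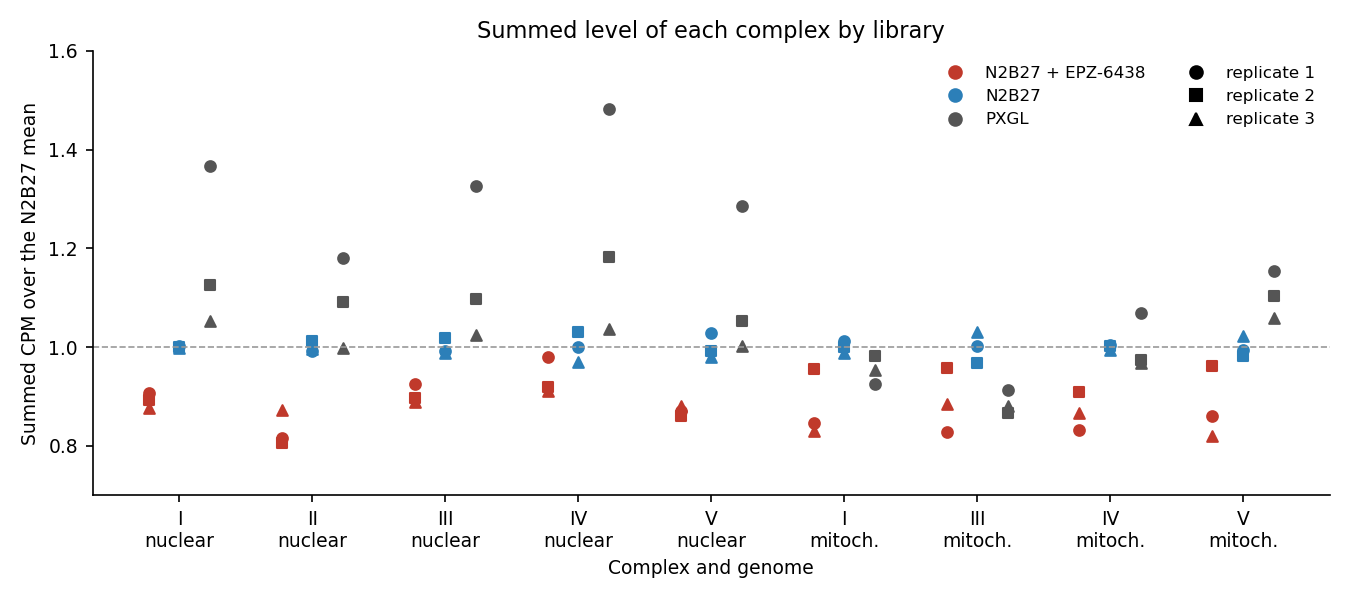
Summed CPM of the members of each complex in every library, divided by the N2B27 mean of that complex (dashed line at 1), for nuclear and mitochondrial-encoded members; colours are groups and shapes are replicates. The inhibitor libraries lie below the N2B27 ones except in nuclear complex IV, where 1 inhibitor library reaches the N2B27 range, and PXGL replicate 1 (grey circle) is the highest PXGL library for each nuclear complex.

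The mitochondrial-encoded genes took 4.27 ± 0.222% of counts with EPZ-6438, 4.78 ± 0.0182% in N2B27 and 4.88 ± 0.0506% in PXGL (SD, n = 3 each). The mitochondrial ribosomal RNAs took 1.05 ± 0.028% with EPZ-6438, 1.02 ± 0.0265% in N2B27 and 0.832 ± 0.0204% in PXGL. The protocol names a kit that depletes ribosomal RNA and a label names polyA RNA, which was not settled and bears on that share. With EPZ-6438 against N2B27, 4 of 13 mitochondrial genes were called lower, 0 higher and 9 not called, at a median log2 fold change of -0.17, beside the 10.6% of all tested genes and 15.7% of those with a mean of at least 30 CPM called lower. At an unadjusted p under 0.05 there were 7 lower and 0 higher, and by DESeq2 6 lower and 0 higher. MT-ND1, a membrane core subunit of complex I (3307 to 4262 of the mitochondrial genome), had 1772, 2120.3 and 1871 CPM with EPZ-6438, against 2295, 2302 and 2400.5 CPM in N2B27. The groups did not overlap, with a log2 fold change of -0.28 ± 0.07 (edgeR adjusted p = 0.0058). Its neighbour MT-ND2 changed by -0.23 ± 0.07 (edgeR adjusted p = 0.016). MT-CO1, the catalytic subunit of complex IV, changed by -0.22 ± 0.06 (0.017) and MT-CO2, which receives electrons from cytochrome c, by -0.22 ± 0.07 (0.028). MT-ND1 stayed called in each leave-one-out fit, at an adjusted p of up to 0.0496. MT-ND2 was lost without EPZ-6438 replicate 1 or 3 or N2B27 replicate 1 or 3 and with the transcript length trend removed, MT-CO1 without EPZ-6438 replicate 1 or 3 or any 1 N2B27 library, and MT-CO2 without EPZ-6438 replicate 1 or 3 or N2B27 replicate 1 or 2. The other 9 had log2 changes of -0.18 (MT-ATP6) to 0.025 (MT-ND4L). Without PXGL replicate 1, 8 were called lower, these 4 among them. That stands beside 17.9% of all tested genes and 30.2% of those with a mean of at least 30 CPM.

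In N2B27 against PXGL 2 of the 13 mitochondrial genes were called lower and 2 higher, beside 28.7% and 27.3% of all tested genes. MT-ND6, the 1 protein gene on the light strand, had 359, 344 and 337 CPM in N2B27, against 436, 443 and 452 CPM in PXGL, and was lower (log2 change -0.36 ± 0.08, edgeR adjusted p = 0.00086). MT-CO2 had 4427, 4408 and 3989 CPM in N2B27, against 5283, 4936 and 4778 CPM in PXGL, and was lower (log2 change -0.23 ± 0.07, edgeR adjusted p = 0.01). For both genes all N2B27 libraries lay below all PXGL libraries. MT-CYB, the mitochondrial core of complex III, had 3195, 3087 and 3285 CPM in N2B27, against 2909.7, 2765 and 2809.8 CPM in PXGL, and was higher (log2 change 0.17 ± 0.07, edgeR adjusted p = 0.033). MT-CO3 had 9086, 8801 and 8741 CPM in N2B27, against 8897, 7286 and 7033 CPM in PXGL, and was higher (log2 change 0.20 ± 0.08, edgeR adjusted p = 0.044), with PXGL replicate 1 inside the N2B27 range. With the transcript length trend removed, neither MT-ND6 nor MT-CO2 was called lower, and with total counts in place of TMM, neither MT-CYB nor MT-CO3 was called higher. MT-CO3 was lost in 8 of the 9 leave-one-out fits and MT-CYB in 6, without EPZ-6438 replicate 3, any 1 N2B27 library, PXGL replicate 2 or PXGL replicate 3; MT-CO3 was lost without these and without EPZ-6438 replicates 1 and 2, and MT-CO2 was lost without N2B27 replicate 3. The median over the 13 was -0.023, or 0.046 with the length trend removed, where 5 were higher and 0 lower. Without PXGL replicate 1 it was -0.11, with 3 lower, MT-ND5 (-0.16) being added, and 3 higher, MT-ND2 (0.13) being added, and MT-CO3 changed by 0.31. The mitochondrial median thus had no steady sign across these fits. With EPZ-6438 against PXGL, MT-ND6 (-0.50), MT-CO2 (-0.45), MT-ND3 (-0.38), MT-ATP6 (-0.33) and MT-CO1 (-0.27) were lower and 0 were higher (also 0 at an unadjusted p under 0.05 and by DESeq2); MT-ND3, with 63.5 to 69.2 CPM with EPZ-6438 and 70.1 to 116 CPM in PXGL, was lost without any 1 EPZ-6438 library or PXGL replicate 1 or 2. The median over the 13 was -0.18, beside 28% of all tested genes called lower and 28.1% higher. It was -0.25 without PXGL replicate 1, with 5 lower, MT-ND5 (-0.32) in place of MT-ND3, and MT-CO3 higher (0.14).

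**Figure D3:**
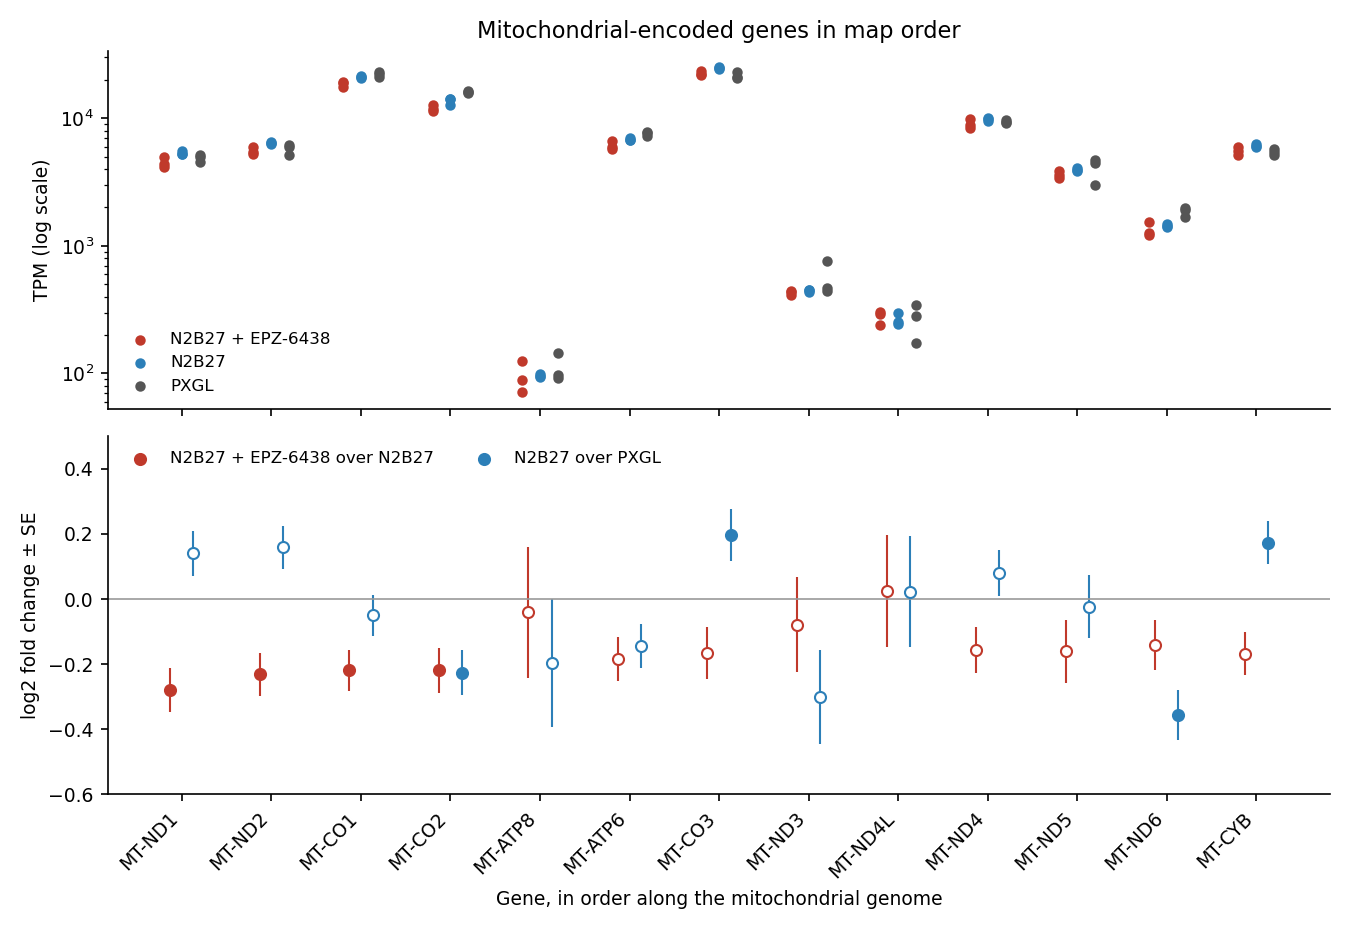
Mitochondrial-encoded genes in map order: TPM in each library on a log axis (top, coloured by group) and log2 fold change ± SE (bottom), with filled points called at adjusted p under 0.05. With the inhibitor 12 of 13 genes lie below 0, while in N2B27 over PXGL MT-CYB and MT-CO3 are called above 0 and MT-ND6 and MT-CO2 below.

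Overlaps limit how these genes can be told apart. The end of MT-ATP8 and the start of MT-ATP6 share 46 bases at chrM:8527-8572 on the plus strand, shown here in lower case. Reads within these bases match both genes, and no source used here says how the counting shared out such reads.
MT-ATP8 and MT-ATP6: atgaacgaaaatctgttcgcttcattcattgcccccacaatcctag
MT-ATP8, with 6.57 to 11.6 CPM with EPZ-6438, 8.84 to 9.28 CPM in N2B27 and 8.66 to 13.2 CPM in PXGL, stood far below MT-ATP6, with 1738 to 2037 CPM, 2082 to 2167 CPM and 2245 to 2448 CPM in these groups, although the cell carries both on 1 bicistronic transcript. MT-ND4L, which shares 7 bases with MT-ND4, was also low, at 270 TPM over all libraries, against 9428 TPM for MT-ND4. MT-ND3 stood at 478 TPM. MT-ATP8, MT-ND4L and MT-ND3 have the shortest transcripts of the mitochondrial members, at 207, 297 and 346 bases. TPM here divides by the full transcript length, and why these genes came out low was not tested. No source used here gives the strandedness, so MT-ND6 reads and antisense reads of its region cannot be told apart. Nuclear copies of mitochondrial genes took little: MTATP6P1 and MTCO1P12 held 1470 and 729 counts over all libraries, against 306398 for MT-ATP6 and 2089594 for MT-CO1.

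Within complex IV, 3 isoform genes were lower in N2B27 than in PXGL. NDUFA4, first assigned to complex I and now to complex IV, has a hypoxia-induced paralog, NDUFA4L2 (chromosome 12, 57234903 to 57240715). NDUFA4L2 had 2.01, 2.19 and 1.22 CPM with EPZ-6438, 1.32, 1.41 and 1 CPM in N2B27 and 24, 18.7 and 16.2 CPM in PXGL. The PXGL libraries lay far above the others and the remaining groups overlapped. In N2B27 over PXGL the log2 change was -3.98 ± 0.23 (edgeR adjusted p = 3.8e-10), 15.7-fold lower, and -3.81 without PXGL replicate 1. NDUFA4 had 147 to 158 CPM with EPZ-6438, 147 to 159 CPM in N2B27 and 132 to 198 CPM in PXGL and was not called. Of the length-scaled sum of both, NDUFA4L2 made up 2.11 ± 0.587% with EPZ-6438, 1.46 ± 0.215% in N2B27 and 18.1 ± 0.162% in PXGL. COX6B2, the testis isoform of the COX6B subunit (chromosome 19, 55349306 to 55354814), had 1.41, 0.669 and 0.746 CPM with EPZ-6438, 0.627, 0.211 and 0.533 CPM in N2B27 and 3.84, 4.66 and 2.67 CPM in PXGL. The log2 change in N2B27 over PXGL was -3.00 ± 0.42 (edgeR adjusted p = 1.4e-05), from few counts, with all PXGL libraries above all others. The testis isoform COX7B2 changed by -0.90 ± 0.25 (edgeR adjusted p = 0.0066). With EPZ-6438 against N2B27 none of the 3 was called, at 0.55 ± 0.30 for NDUFA4L2, 1.02 ± 0.49 for COX6B2 and 0.15 ± 0.27 for COX7B2. Their edgeR adjusted p was 0.20, 0.15 and 0.73. These values show no change with EPZ-6438 for any of the 3, and do not show that there was none. For COX6B2 all EPZ-6438 libraries lay above all N2B27 libraries, from few counts.

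**Figure D4:**
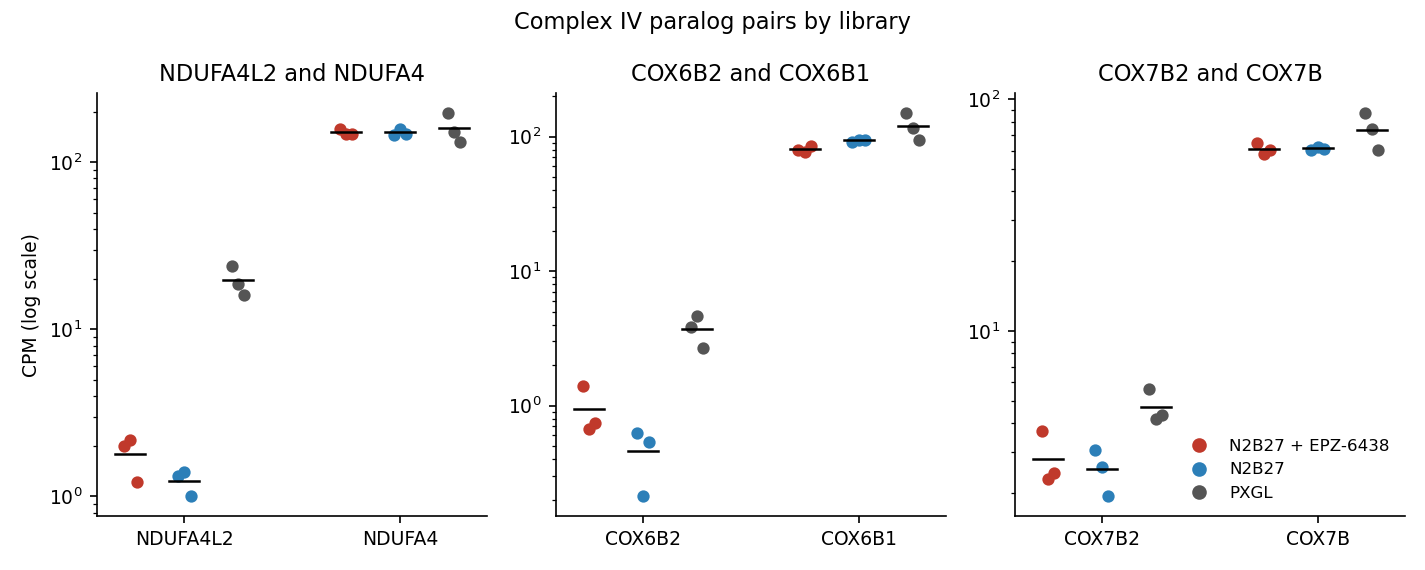
CPM on a log axis in each library for 3 complex IV isoform genes (left of each panel) and their common counterparts (right); points are libraries, bars are group means. NDUFA4L2 lies at 16.2 to 24 CPM in PXGL and at 1 to 2.19 CPM in the other groups, while NDUFA4 lies at 132 to 198 CPM throughout.

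The common isoforms stayed dominant. COX6B1 made up 98.9 ± 0.256% of the COX6B pair in PXGL and COX7B 86.1 ± 1.46% of the COX7B pair. The c-ring of ATP synthase is made from 3 genes with the same mature peptide. ATP5MC3 made up 59.1 ± 0.681% of their length-scaled sum with EPZ-6438, 60.2 ± 0.736% in N2B27 and 60 ± 0.178% in PXGL. ATP5MC1 took 17.7 ± 0.36% with EPZ-6438, 19.2 ± 0.325% in N2B27 and 21.2 ± 0.594% in PXGL, and ATP5MC2 took 23.2 ± 0.948%, 20.6 ± 1.06% and 18.9 ± 0.442% in these groups. The ATP5MC1 shares did not overlap between groups. ATP5MC1 itself had 70, 66.4 and 69.4 CPM in N2B27, against 112, 88.1 and 79.7 CPM in PXGL (log2 change -0.44 ± 0.10, edgeR adjusted p = 0.001), a change of -0.29 without PXGL replicate 1. COX6A1, the ubiquitous isoform of a complex IV regulatory subunit, had 169.7, 180.3 and 160.4 CPM in N2B27, against 304, 234 and 212 CPM in PXGL (-0.56 ± 0.10, edgeR adjusted p = 0.0002). Its change without PXGL replicate 1 was -0.39. COX7A2, COX7B and COX6B1 were called lower at -0.29, -0.27 and -0.37, with N2B27 and PXGL libraries overlapping, and changed by -0.14, -0.13 and -0.18 without PXGL replicate 1. COX6B1 was lost without N2B27 replicate 1, COX7A2 without N2B27 replicate 1 or 3, and COX7B without EPZ-6438 replicate 3, any 1 N2B27 library or PXGL replicate 1 or 2. COX6B1 was also lost with no low-count filter and COX7A2 in a fit of only the 2 groups compared. COX7B was also lost in that fit, by the DESeq2 Wald test and with the transcript length trend removed. In the same comparison COX8A and the supercomplex factor COX7A2L were not called.

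**Figure D5:**
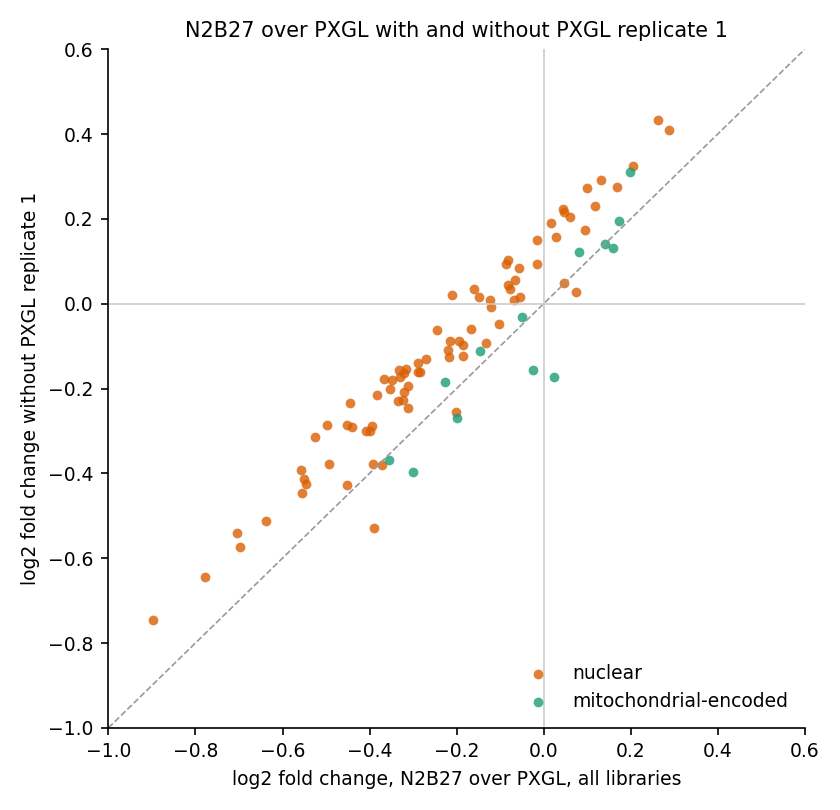
Log2 fold change of each tested member in N2B27 over PXGL with all libraries (x axis) and without PXGL replicate 1 (y axis); the dashed line marks equal values, and NDUFA4L2 and COX6B2 lie off the axes. Most nuclear members lie above the dashed line, and the nuclear median is -0.26 with all libraries and -0.14 without that library.

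Other genes that the chain depends on were taken from lists of their roles. The counts below stand beside 10.6% of all tested genes called lower and 14.2% higher with EPZ-6438 against N2B27, and 28.7% lower and 27.3% higher in N2B27 against PXGL. These shares were, without PXGL replicate 1, 17.9% and 19.2% in the first comparison and 30.8% and 30.4% in the second. The share called lower among genes with a mean of at least 30 CPM was 15.7% in the first comparison and 27% in the second. Without PXGL replicate 1, 30.2% of such genes were called lower in the first comparison. In the second, 31.6% of them were then called lower and 42.5% higher. Of 6 subunits outside the name rule, 0 were called with EPZ-6438 against N2B27 (edgeR; 2 were lower without PXGL replicate 1). Of these 6, 2 were lower in N2B27 than in PXGL, COX4I1 (-0.49) and NDUFAB1 (-0.38), at a median of -0.062. Both were still lower without PXGL replicate 1, at -0.30 and -0.25, but 3 others were higher and the median was 0.051.

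Of 55 assembly factors, 5 (9.09%) were lower and 0 higher with EPZ-6438 against N2B27, among them the F1 assembly factor ATPAF1 (-0.43); without PXGL replicate 1 there were 14 lower and 1 higher. Between N2B27 and PXGL, 9 were lower and 5 higher in N2B27, led by the inner-membrane insertase OXA1L (-0.44) and the complex I factor NDUFAF2 (0.81), at a median of -0.11. The balance turned without PXGL replicate 1, to 8 lower and 14 higher at a median of 0.012. Of 29 genes for replication and expression of mitochondrial DNA, 6 (20.7%) were lower and 0 higher with EPZ-6438, including the mitochondrial RNA polymerase POLRMT (-0.27) and the mRNA stability factor LRPPRC (-0.22), and 14 were lower and 1 higher without PXGL replicate 1. In N2B27 against PXGL 10 of these 29 were higher and 3 lower, or 14 higher and 2 lower without PXGL replicate 1. TFAM, which packages mitochondrial DNA and starts its transcription, had 235, 237 and 237 CPM in N2B27, against 158.5, 158.7 and 158.6 CPM in PXGL, a log2 change of 0.57 ± 0.06 (edgeR adjusted p = 2.2e-07). Of 78 mitochondrial ribosomal proteins, 14 (17.9%) were lower and 0 higher with EPZ-6438, with MRPL19 at -0.47, and 30 were lower and 0 higher without PXGL replicate 1. Relative to PXGL, 14 were higher and 12 lower in N2B27, with MRPL3 at 0.65, or 37 higher and 6 lower without PXGL replicate 1. With all libraries, both shares of the assembly factors and of the ribosomal proteins in that comparison lay below those of all tested genes.

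Of 20 tested regulators, PPARGC1A, a coactivator of mitochondrial biogenesis, was the 1 called higher with EPZ-6438 against N2B27: it had 17.1, 20.9 and 15 CPM with EPZ-6438, against 6.61, 9.84 and 7.2 CPM in N2B27, a log2 change of 1.17 ± 0.18 (edgeR adjusted p = 0.00012). Another 6 were lower (7 lower and 2 higher without PXGL replicate 1), among them HIF1A, the oxygen-sensing transcription factor, at -0.34 ± 0.06, and MYCN at -0.47 ± 0.08. In N2B27 against PXGL 10 regulators were higher and 3 lower, with or without PXGL replicate 1. MYC, a transcription factor known to act on growth and mitochondrial genes, had 53.2, 47 and 50.4 CPM in N2B27, against 3.46, 3.18 and 1.55 CPM in PXGL, a log2 change of 4.20 ± 0.16 (edgeR adjusted p = 2.4e-12). HIF1A was higher by 0.87 ± 0.06 (edgeR adjusted p = 1.7e-09), beside the lower NDUFA4L2 described above. The part of these regulators in the members' levels was not tested.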

How the data were processed

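RNA-seq was analysed from 9 libraries, 3 per group. What the authors deposited is a single table of expected counts, not normalized, for 40332 symbols. The genome was hg38 and the tools named were STAR 2.7.6a, Trim Galore and DESeq2, per the submitters' processing notes. No source used here names the counting program, the annotation or the strandedness. Expected counts were rounded to whole numbers. edgeR 4.0.16 in R 4.3.3 (filterByExpr, TMM, robust quasi-likelihood fit of all 9 libraries with a term per group) tested 15179 of 22640 genes with a count, adjusted by Benjamini-Hochberg over all of them at 0.05. CPM uses TMM-scaled totals and TPM the median length of principal transcripts in GENCODE 29, to which 106 of 106 members matched; coordinates are from that annotation. In a test on simulated data for EPZ-6438 against N2B27 (14577 genes), 62.2% of genes changed 1.5-fold and 74% of genes changed 2-fold were recovered, with 12 false calls. Depth was 14482124 to 18358519 counts. No replicate pair differed by as little as sampling noise, and all libraries were kept. Members, gene lists and the rule for named genes (mitochondrial members, up to 2 calls per complex and direction, complex II, paralog sets and level extremes, up to 3 calls per other list) were chosen with earlier results of these data known. Genes named beyond it were chosen after their values were seen. NDUFA4 and NDUFA4L2 were counted with complex IV. Alternatives were DESeq2 1.42.0, other scalings and filters, 2-group fits, a replicate block and leaving out each library; removal of a transcript length trend was chosen after seeing the data.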

Additional observations from a re-analysis of the deposited data

How the results depend on the processing

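No member called with all libraries and named in the text changed sign under any of the 18 alternatives. The mitochondrial median in N2B27 against PXGL did: it was -0.023, against 0.046 with the transcript length trend removed, 0.034 without PXGL replicate 2 and 0.03 without PXGL replicate 3. With EPZ-6438 against N2B27, the nuclear members called lower numbered 23 with no low-count filter, 32 in a fit of only the 2 groups compared (where 1 was higher) and 25 with the transcript length trend removed, and the mitochondrial ones 7 with no filter and 7 in the 2-group fit. In N2B27 against PXGL, nuclear members called higher numbered 2 with DESeq2 size factors, 3 with no filter and 8 with the length trend removed, where 37 were lower at a median of -0.15. Mitochondrial genes called higher numbered 4 with the DESeq2 Wald test, 1 in the 2-group fit, 0 with total counts and 5 with the length trend removed, where 0 were lower. With that trend removed, EPZ-6438 against PXGL had 1 nuclear and 2 mitochondrial members higher. The cause was not tested.

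The N2B27 mitochondrial share was 4.83% with mitochondrial rRNA left out of the total.

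Same-numbered libraries did not deviate together (r of -0.0256 to 0.0369). No label says what a number marks, so this does not settle whether the numbers pair the samples. With the replicate block, 17 nuclear members were lower with EPZ-6438 against N2B27, 2 were higher and 46 lower in N2B27 against PXGL, and 56 were lower with EPZ-6438 against PXGL.

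Leaving out each library gave, for EPZ-6438 against N2B27, 0 to 1 nuclear members higher and 6 to 33 lower (median -0.13 to -0.09) and 1 to 8 mitochondrial genes lower (-0.25 to -0.15). For N2B27 against PXGL it gave 0 to 14 nuclear higher and 32 to 50 lower (-0.35 to -0.14), and 0 to 3 mitochondrial higher and 1 to 4 lower (-0.11 to 0.034). For EPZ-6438 against PXGL it gave 0 to 4 nuclear higher and 46 to 66 lower (-0.45 to -0.25), and 0 to 1 mitochondrial higher and 4 to 5 lower (-0.25 to -0.09). The mitochondrial share was 4.14 to 4.35% with EPZ-6438, 4.77 to 4.79% in N2B27 and 4.85 to 4.9% in PXGL. The members called with EPZ-6438 against N2B27 all changed by less than 1.5-fold. How often changes of that size are recovered among the members was not tested, so members without a call may have changed.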
